A study of Schizosaccharomyces pombe with 16 samples.

Results

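The comparison described here was the change in the total mRNA of wild type (WT) fission yeast cells over 6 h of growth. It ran from exponential growth, called 0 h, to 6 h later, in what the study calls the pre-stationary phase. It was chosen by its libraries: 2 at 0 h and 2 at 6 h, that is 4 of the 16 libraries of the series, and it was described across all genes, of which 6170 of 7014 had enough reads to be tested. The cells were Schizosaccharomyces pombe of the wild type strain 972, grown in the rich medium YES at 30 °C with no drug or other treatment, and 0 h was the time at which the culture reached an optical density of 0.5 at 550 nm. The other 12 libraries were the polysome fractions of the same strain at both times, and total mRNA and polysome fractions of eIF2α.S52A cells, in which alanine replaces the serine of the translation initiation factor eIF2α that eIF2 kinases phosphorylate. In the study's strain description the mutant also carries a ura4 marker, so the strains differ in more than that residue. Each group had 2 replicates from 2 experiments, and libraries with the same replicate number came from the same experiment. RNA was made from whole cultures, so a change in each cell and a change in the share of cells in a given state cannot be told apart.

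When a yeast culture uses up its glucose and other nutrients, cells slow their division and stop investing in ribosomes. In fission yeast this transition is known to involve relief from glucose repression, the stress-activated kinase Sty1 with its transcription factor Atf1, lower TOR kinase activity, autophagy and, in part of the population, the programme that leads to mating. Ribosomal proteins, their assembly factors and ribosomal RNA make up a large part of what a growing cell synthesises, which is why the mRNAs of the ribosome are usually the first group examined in such a transition.

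The 4 libraries held between 14048961 and 16814647 counts of reads assigned to genes, and over the 16 libraries the totals ran from 11279417 to 20522997. Levels are given below as CPM, counts scaled to a common library total after adjustment by trimmed means (TMM), and 1 count was worth between 0.0378 and 0.051 CPM. The squared correlation of log2 CPM across genes was 0.970 between the replicates at 0 h and 0.971 between those at 6 h, and between 0.854 and 0.904 between a library at 0 h and one at 6 h, a correlation across genes that are not independent replicates. Scaling makes every change relative to the other mRNAs of the library, since no spike-in was counted. tif211, which encodes eIF2α, stood at 490 and 495 CPM at 0 h and at 254 and 286 CPM at 6 h.

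At an adjusted p under 0.05 in edgeR's quasi-likelihood test, fitted over all 16 libraries and adjusted over all genes tested, 741 genes changed, 12.0% of those tested. Of these, 370 were higher at 6 h (6.00%) and 371 were lower (6.01%). The rises were the larger: 145 of the genes that rose did so by at least 2 on the log2 scale against 32 of those that fell, and 65 against 5 reached 3. Genes that rose were of lower abundance than genes that fell, with median levels of 4.74 and 6.74 log2 CPM beside 5.35 for all genes. In all 741 the libraries at 6 h did not overlap those at 0 h, as was so for 69.8% of all genes tested. With the experiment as a block in the fit, 681 genes were higher (11.0%) and 693 lower (11.2%), and all 741 were among them.

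**Figure D1:**
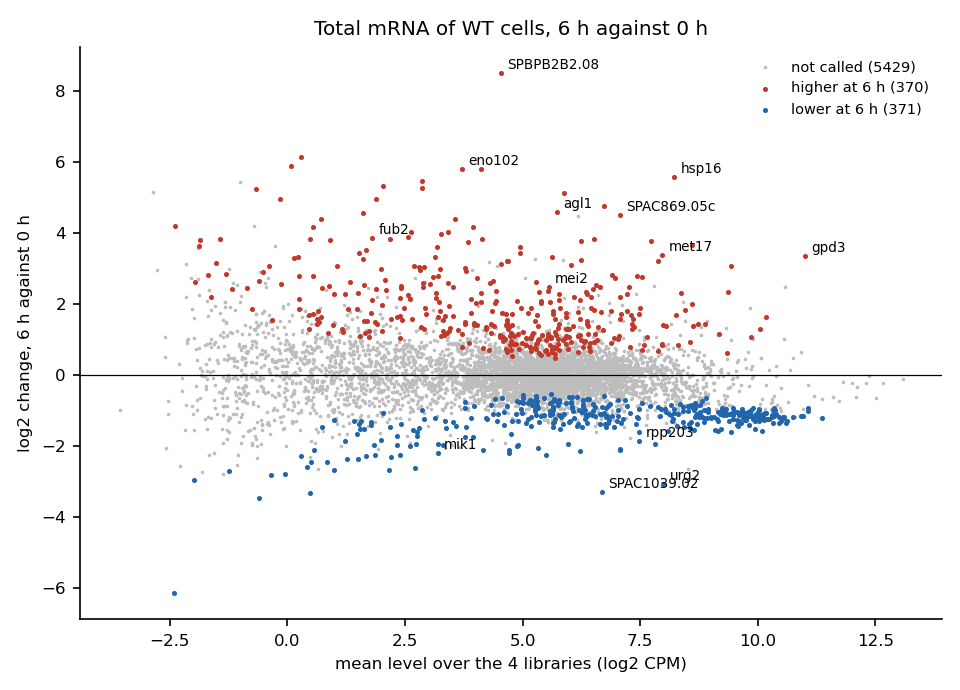
Log2 change from 0 h to 6 h in total mRNA of WT cells (vertical axis) against the mean level over the 4 libraries in log2 CPM (horizontal axis), 1 point for each of 6170 genes tested. Red points are the 370 genes called higher and blue points the 371 called lower at an adjusted p under 0.05; the red points reach further from 0, and the blue points gather at high levels.

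With 2 libraries a group, the calls depended on each of them. Of the 741 calls, 82 were kept without replicate 1 at 0 h, 16 without replicate 2 at 0 h, 51 without replicate 1 at 6 h and 171 without replicate 2 at 6 h, although the log2 change of all 741 kept its sign each time. Only 14 genes were called under every one of these omissions, of which 11 were higher and 3 lower. Scaling by library size alone raised the log2 change of the median gene by 0.222 and moved the split to 637 higher and 207 lower, so that 75.5% of calls were rises in place of 49.9%. The p-values measure the spread between replicates in these samples, estimated over all 16 libraries, most of which lie outside this comparison.

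The mRNAs of the ribosome held more falls than any other of the 52 gene lists examined. Of 138 genes of cytosolic ribosomal proteins, 115 fell and none rose, and their median log2 change was -1.11 (-1.16 in experiment 1 and -1.08 in experiment 2) beside -0.01 for all genes. Together they took up 23.5% and 24.9% of all counts in the 2 libraries at 0 h, and 12.7% and 13.4% at 6 h. The log2 change of each of the 138 was below 0 in both experiments. Reads of paired, near-identical ribosomal protein genes can be split or lost in counting, so values of single genes are uncertain while the list as a whole is less exposed.

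Among them, rpp203, an acidic protein of the stalk of the large subunit, stood at 338 and 343 CPM at 0 h and at 86.3 and 103 CPM at 6 h. It fell by 1.85 on the log2 scale (SE 0.37, n = 2 libraries a group, adjusted p = 0.0135 in edgeR). rpl2702, for protein L27 of the large subunit, went from 979 and 981 CPM to 309 and 357 CPM, a log2 change of -1.56 (SE 0.29, adjusted p = 0.0111 in edgeR). rpl1002, for protein L10, stood at 970 and 880 CPM at 0 h and at 311 and 333 CPM at 6 h. Both times were well separated in each of the 3 genes, and the replicates differed by far less than the times. Without replicate 1 at 0 h 7 ribosomal protein genes were called lower, without replicate 2 at 0 h none, without replicate 1 at 6 h none, and without replicate 2 at 6 h 8; with the block 127 were called.

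Promoters of ribosomal protein genes in fission yeast often carry the HomolD box, CAGTCACA, near the start of transcription in place of a TATA box. In the 250 bases before the annotated transcript start (RefSeq, assembly ASM294v3), searched on both strands, this box was found at 88 of the 138 ribosomal protein genes (63.8%), at 2.67% of 5012 promoters of tested genes, at 26.8% of those called lower and at 0.34% of those called higher. TATAAA, also searched on both strands, was found at 24.6% of the ribosomal protein promoters and at 44.5% of all. The box ended a median of 44 bases before the start, with quartiles at 40 and 50. Of the ribosomal protein genes with the box 75 of 88 fell, with a median log2 change of -1.11. Of those without it 40 of 50 fell, with a median of -1.12. These 75 made up most of the 86 promoters with the box among all genes called lower. These 3 stretches of 60 bases, from genes among the ribosomal protein mRNAs that fell most, show the box in capitals as it lies on the coding strand (CAGTCACA or its reverse complement TGTGACTG), 5′ to 3′, with coordinates of ASM294v3:
rpp203, chrI:3868989-3869048 (plus strand): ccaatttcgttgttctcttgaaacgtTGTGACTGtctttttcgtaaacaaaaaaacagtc
rps403, chrI:3399168-3399227 (plus strand): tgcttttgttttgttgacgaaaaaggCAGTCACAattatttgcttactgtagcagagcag
rpl1202, chrIII:627836-627895 (minus strand): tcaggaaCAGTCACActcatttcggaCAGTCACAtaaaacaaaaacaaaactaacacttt
rps403, for protein S4 of the small subunit, stood at 1709 and 1604 CPM at 0 h and at 554 and 601 CPM at 6 h, and rpl1202, for protein L12, at 514 and 509 CPM and then 191 and 192 CPM. The match is a description of these letters and was not tested against the change.

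Ribosome biogenesis factors, which process ribosomal RNA and assemble the subunits, were lower as a list. Of 127 such genes 29 fell and none rose, 126 had log2 changes below 0, and the median was -0.91 (-0.80 and -1.06 in the 2 experiments). dbp3, an RNA helicase of the large subunit pathway, stood at 252 and 306 CPM at 0 h and at 70.7 and 58.6 CPM at 6 h, and fell by 2.11 on the log2 scale (SE 0.40, adjusted p = 0.0115 in edgeR). has1, another helicase, went from 154 and 211 CPM to 65.6 and 68.9 CPM, and nip7, which is needed for large subunit assembly, from 96 and 138 CPM to 41.7 and 45.7 CPM. At 0 h these genes were higher in experiment 2 than in experiment 1, and with the block 77 of the list were called lower. Library size scaling left 4 calls. Without replicate 1 at 0 h 1 call was left, and without any one of the other 3 libraries none.

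Other parts of the translation apparatus moved the same way. Of 23 subunits and factors of RNA polymerases I and III, which transcribe ribosomal RNA, 5S RNA and tRNA, 4 fell (rpc40, rpa34, rpa49 and rpc19) and the median was -0.69. rpc40, a subunit shared by both enzymes, stood at 151 and 203 CPM at 0 h and at 69.3 and 79.0 CPM at 6 h. Of 31 initiation, elongation and termination factors 9 fell, among them tif211 itself (log2 change -0.87, SE 0.20, adjusted p = 0.0213 in edgeR) and tef5, the exchange factor eEF1B, at 1713 and 1679 CPM and then 665 and 786 CPM. A list of factors that bind the nascent chain at the ribosome was drawn up after the values had been seen. All 5 of its genes fell, with log2 changes from -1.45 to -1.0. zuo1, the Hsp40 partner at the ribosome, stood at 551 and 594 CPM at 0 h and 189 and 231 CPM at 6 h, and sks2, the ribosome-associated Hsp70, at 3137 and 2971 CPM and then 1575 and 1469 CPM. With the block 12, 15 and 5 of these lists were lower. None of these calls was kept with any 1 of the 4 libraries left out.

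By contrast the 45 genes of mitochondrial ribosomal proteins had no call in either direction, also with the block, and their median was -0.09 (0.14 under library size scaling). mrpl25, the member with the lowest p, stood at 44.8 and 45.0 CPM at 0 h and at 29.7 and 32.2 CPM at 6 h (adjusted p = 0.133 in edgeR). No call was made either among 15 subunits of the vacuolar proton pump, 11 histones, or 4 actin and tubulin genes. At the 12.0% called over all genes, lists this short would hold few calls in any case. Actin, act1, stood at 1755 and 1371 CPM at 0 h and at 1835 and 1645 CPM at 6 h.

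**Figure D2:**
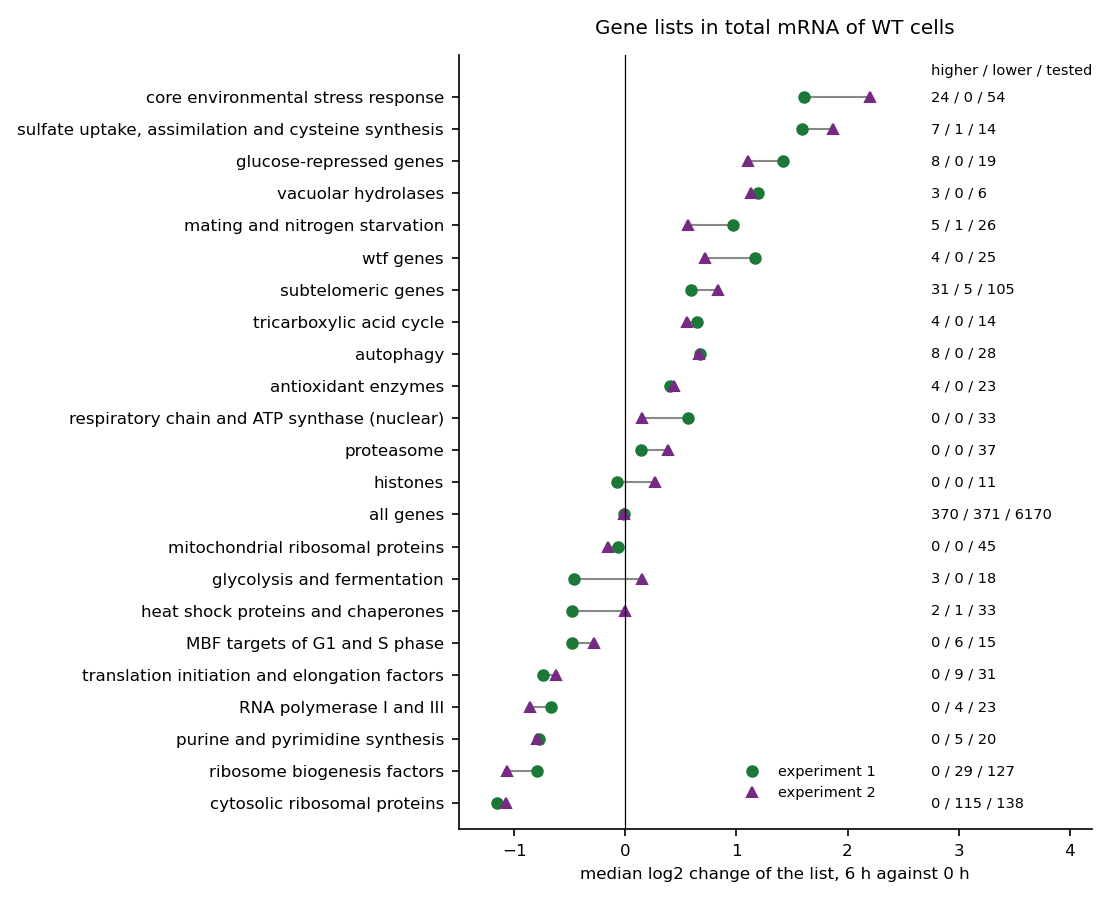
Median log2 change of 23 gene lists from 0 h to 6 h in total mRNA of WT cells (horizontal axis), in experiment 1 (circles) and experiment 2 (triangles), with the number called higher, called lower and tested at the right. The core stress list has the highest medians (1.61 and 2.20) and ribosomal proteins the lowest (-1.16 and -1.08); glycolysis and histones lie on both sides of 0.

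Nucleotide synthesis genes were lower in part. Of 20 genes of purine and pyrimidine synthesis 5 fell and none rose, with a median of -0.79 and 9 called with the block. urg2, a uracil phosphoribosyltransferase of the uracil salvage cluster, stood at 1310 and 352 CPM at 0 h and at 71.2 and 128 CPM at 6 h, so its replicates at 0 h differed more than those of most genes named here. ura3 and ura5, enzymes of pyrimidine synthesis, went from 431 and 511 CPM to 163 and 157 CPM and from 141 and 188 CPM to 64.6 and 82.9 CPM. apt1, the adenine phosphoribosyltransferase of purine salvage and not on that list, stood at 276 and 278 CPM and then at 71.9 and 60.3 CPM, a log2 change of -2.07 (SE 0.36, adjusted p = 0.00831 in edgeR, and at most 0.0729 with 1 library left out).

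On the other side, the core environmental stress response, genes that fission yeast raises under many stresses through Sty1 and Atf1, was the list with the highest median. Of 54 genes 24 rose and none fell, and the median log2 change was 1.84 (1.61 in experiment 1 and 2.20 in experiment 2). These genes held 0.674% and 0.497% of counts at 0 h and 2.42% and 2.69% at 6 h. hsp16, a small heat shock protein, stood at 58.8 and 30.0 CPM at 0 h and at 2392 and 1866 CPM at 6 h, and hsp9 at 249 and 242 CPM and then 1361 and 2817 CPM. ctt1, the catalase, stood at 84.7 and 45.3 CPM and then at 176 and 284 CPM, gpx1, a glutathione peroxidase, at 177 and 163 CPM and then at 455 and 662 CPM. The rise of hsp16 was 5.58 on the log2 scale (SE 1.36, adjusted p = 0.0233 in edgeR), the widest error of the genes named in this paragraph. With the block 34 genes of the list were called higher; without replicate 1 or 2 at 0 h none was, without replicate 1 at 6 h 2 were, and without replicate 2 at 6 h 4.

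The Atf1 dimer binds the core of the cyclic AMP response element (CRE), TGACGT. It was found on either strand in the 250 bases before the start at 19 of the 54 stress genes (35.2%) and at 5.59% of all promoters, at 9.52% of genes called higher and at 4.05% of genes called lower. Of the 19 genes with it 7 rose with a median of 1.46, and of the 35 without it 17 rose with a median of 2.02. These promoters belong to the stress genes with a CRE that rose most, with TGACGT or its reverse complement ACGTCA in capitals, on the coding strand and in coordinates of ASM294v3:
SPAC15E1.02c, chrI:3721898-3721957 (minus strand): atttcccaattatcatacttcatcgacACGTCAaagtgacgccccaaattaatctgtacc
SPAC19G12.09, chrI:4059912-4059971 (plus strand): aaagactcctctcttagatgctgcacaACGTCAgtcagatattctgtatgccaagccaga
hmt2, chrII:2590952-2591011 (minus strand): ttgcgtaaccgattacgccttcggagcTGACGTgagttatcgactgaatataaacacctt
SPAC15E1.02c, uncharacterized in RefSeq, stood at 7.19 and 10.2 CPM at 0 h and at 58.4 and 104 CPM at 6 h. SPAC19G12.09, a reductase of the aldo-keto family by its RefSeq annotation, stood at 67.1 and 62.9 CPM and then at 355 and 380 CPM. hmt2, the mitochondrial sulfide-quinone oxidoreductase, stood at 272 and 313 CPM and then at 1542 and 1446 CPM, a log2 change of 2.35 (SE 0.39, adjusted p = 0.00683 in edgeR).

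The calls among heat shock proteins and chaperones did not set that list apart from all genes. Of 33 chaperone genes 2 rose (hsp16 and hsp9, both also in the stress list) and 1, sks2, fell. Among all genes 6.00% were higher and 6.01% lower. The median of the list was -0.48 in experiment 1 and -0.0018 in experiment 2. ssa2, a cytosolic Hsp70, stood at 2783 and 2746 CPM at 0 h but at 704 and 3862 CPM at 6 h, and ssa1 at 79.5 and 31.0 CPM and then at 51.4 and 231 CPM. For ssa2 the 2 libraries at 6 h lay on opposite sides of those at 0 h, for ssa1 the times overlapped, and neither gene was called. No gene of the Sty1 pathway and the stress transcription factors was called among 21 (2 higher with the block), beside 12.0% of all genes. pap1, the factor for oxidative stress, stood at 96.2 and 84.7 CPM and then at 145 and 140 CPM (adjusted p = 0.0899 in edgeR, 0.0337 with the block).

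Genes that glucose represses rose in part. Of 19 such genes 8 rose and none fell, with a median of 1.49 and 10 called with the block. inv1, the secreted invertase, stood at 6.32 and 3.27 CPM at 0 h and at 74.3 and 62.4 CPM at 6 h. fbp1, the gluconeogenic fructose-1,6-bisphosphatase, stood at 2.60 and 2.18 CPM and then at 23 and 17.1 CPM, a log2 change of 3.07 (SE 0.39, adjusted p = 0.00211 in edgeR). agl1, a secreted maltose glucosidase, stood at 15 and 10.4 CPM and then at 529 and 93.5 CPM, so the size of its rise differed by experiment. dak2, a dihydroxyacetone kinase, went from 6.17 and 10.5 CPM to 47.1 and 58.4 CPM and was called without any one of the 4 libraries (largest adjusted p 0.0383). Of the 8 genes, 3 were called without replicate 1 at 0 h, 1 without replicate 2 at 0 h, 4 without replicate 1 at 6 h and 5 without replicate 2 at 6 h.

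Part of central carbon metabolism was called. Of 18 genes of glycolysis and fermentation 3 were called, eno102, gpd3 and pdc201, all higher, beside 6.00% of all genes. The median of the list was -0.15 (0.07 under library size scaling). Per kilobase of exon, eno102, an enolase, stood at 1.08 and 1.12 CPM at 0 h and at 65.5 and 58.2 CPM at 6 h, a log2 change of 5.81 (SE 0.84, adjusted p = 0.0033 in edgeR). The main enolase gene eno101 stood at 5570 and 4040 CPM per kilobase and then at 4050 and 4260, so eno102 made up 1.70% and 1.44% of the counts of both genes at 6 h. gpd3, one of 2 genes of glyceraldehyde 3-phosphate dehydrogenase (GAPDH), went from 426 and 503 CPM per kilobase to 6020 and 3520, while the other, tdh1, stood at 7450 and 5090 and then at 4920 and 6720. gpd3 thereby rose from 5.20% and 8.64% of the counts of the pair to 54.0% and 33.4%. Each pair codes for similar proteins, so reads shared by both genes could be miscounted.

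**Figure D3:**
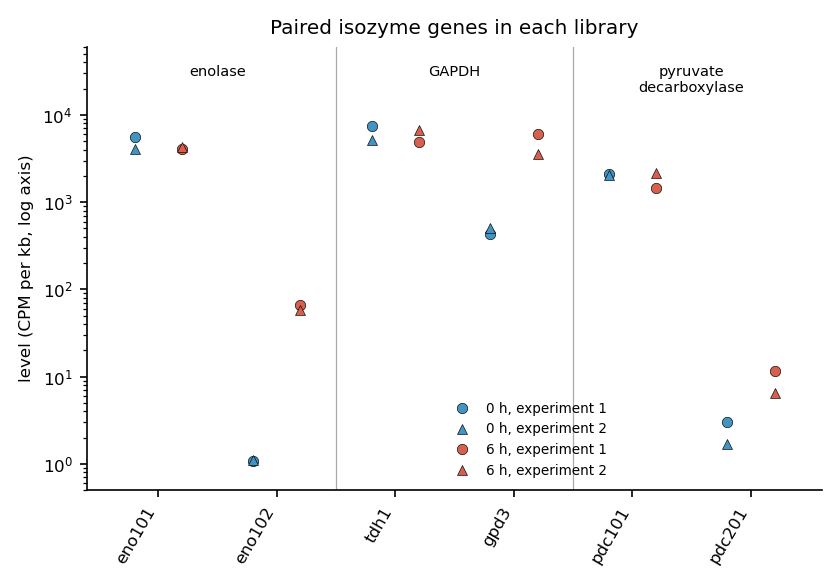
Level per kilobase of exon (CPM per kb, log axis) of 3 pairs of isozyme genes in each of the 4 libraries; blue is 0 h, red is 6 h, circles are experiment 1 and triangles experiment 2. eno102, gpd3 and pdc201 are higher at 6 h in both experiments, while the ranges of eno101, tdh1 and pdc101 at the 2 times overlap.

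Among 14 genes of the tricarboxylic acid cycle 4 rose and none fell, with a median of 0.66 and 8 called with the block. aco1, an aconitase, stood at 513 and 537 CPM at 0 h and at 806 and 817 CPM at 6 h, a log2 change of 0.63 (SE 0.19, adjusted p = 0.0478 in edgeR). dld1 and SPBC3H7.03c, components of oxoglutarate dehydrogenase, and fum1, the fumarase, were the other 3. All 4 lost the call with any 1 of the 4 libraries left out. Of 33 nuclear genes of the respiratory chain and ATP synthase none was called (1 with the block), with a median of 0.37. Hexose transporters were mixed: ght1 and ght4 rose, ght1 from 4.08 and 1.49 CPM to 39.9 and 6.85 CPM, while ght5, the high-affinity transporter, stood at 1330 and 250 CPM and then at 2070 and 1177 CPM and was not called.

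Several genes of sulfur assimilation rose. Cells import sulfate, activate it with ATP, reduce it to sulfide with an enzyme that carries siroheme, and join it to a carbon skeleton to make homocysteine and cysteine. Of 14 genes listed for these steps 7 rose and 1 fell, with a median of 1.75 (1.59 and 1.87 in the experiments). The list was drawn up after the values had been seen, so its counts cannot rank it against other pathways. Of the 2 sulfate transporters, SPAC869.05c stood at 35.4 and 21.7 CPM at 0 h and at 674 and 640 CPM at 6 h, and SPBC3H7.02 at 63.3 and 62.2 CPM and then at 322 and 257 CPM. sua1, which activates sulfate, stood at 653 and 660 CPM and then at 1954 and 2143 CPM. The next enzyme, met14, went the other way, from 326 and 314 CPM to 166 and 179 CPM (log2 change -0.89, SE 0.26, adjusted p = 0.0463 in edgeR).

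SPCC1739.06c, a predicted uroporphyrin methyltransferase of siroheme synthesis, stood at 78.3 and 76.7 CPM at 0 h and at 647 and 811 CPM at 6 h, a log2 change of 3.23 (SE 0.33, adjusted p = 0.000971 in edgeR, at most 0.0323 with 1 library left out). sir1, the sulfite reductase itself, stood at 575 and 385 CPM and then at 1845 and 1738 CPM, but with its SE of 0.65 it was not called (adjusted p = 0.0744 in edgeR), while it was with the block (0.00346), under library size scaling (0.0362) and by DESeq2 (0.0192). met17, the homocysteine synthase, stood at 92.1 and 64.6 CPM and then at 847 and 787 CPM. cys2, annotated as a predicted homoserine O-acetyltransferase, stood at 64.0 and 66.2 CPM and then at 476 and 441 CPM. met6, annotated with the same activity, stood at 199 and 200 CPM and then at 180 and 167 CPM and was not called (adjusted p = 0.698 in edgeR). cys11, a cysteine synthase, stood at 227 and 148 CPM and then at 688 and 661 CPM. The reductase met16 at 84.1 and 84.3 CPM and then 69.0 and 81.5 CPM was not called. Of the 7 rises, 6 were called without replicate 1 at 0 h, 3 without replicate 2 at 0 h, 6 without replicate 1 at 6 h and 6 without replicate 2 at 6 h.

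Outside these steps amino acid synthesis showed little movement: of 55 genes 5 rose, 4 of them the sulfur genes met17, cys2, cys11 and sua1 and the other ser3, an enzyme of serine synthesis, and 1 fell, met14. met26, the methionine synthase that comes after homocysteine, stood at 4984 and 3779 CPM and then at 3074 and 2246 CPM and was not called (adjusted p = 0.146 in edgeR).

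Autophagy genes rose as part of the list. Of 28 genes 8 rose (13 with the block) and none fell, 27 had log2 changes above 0, and the median was 0.66 (0.67 and 0.66 in the experiments). atg17, a subunit of the complex that starts autophagosomes, stood at 39.6 and 38.2 CPM at 0 h and at 141 and 126 CPM at 6 h, a log2 change of 1.78 (SE 0.34, adjusted p = 0.0115 in edgeR). atg8, the ubiquitin-like protein that is bound to the autophagosome membrane, stood at 37.7 and 30.5 CPM and then at 87.7 and 70.8 CPM. Its protease atg4 stood at 15.8 and 11.5 CPM and then at 40.4 and 22.2 CPM, and atg13, the partner of atg17, at 34.6 and 32 CPM and then at 81.2 and 61.2 CPM. Of the 6 vacuolar hydrolases listed 3 rose: psp3, a serine protease, cpy1, carboxypeptidase Y, and atg15, a lipase that is also on the autophagy list. cpy1 stood at 670 and 681 CPM and then at 1862 and 1487 CPM. None of the 8 autophagy calls was kept without replicate 1 or 2 at 0 h or replicate 1 at 6 h, and 3 were kept without replicate 2 at 6 h.

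Of 37 proteasome genes none was called by edgeR (1 higher with the block), while 34 had log2 changes above 0 and the median was 0.26. fub2, a homologue of the proteasome regulator PI31, is not on that list: it stood at 0.765 and 1.01 CPM at 0 h and at 12.2 and 13.9 CPM at 6 h and was called without any one of the libraries (log2 change 3.86, SE 0.48, adjusted p = 0.0019 in edgeR, at most 0.0396).

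The kinases of eIF2α differed from one another. Fission yeast has the heme-regulated type kinases Hri1 and Hri2 and the amino acid sensor Gcn2, which works with Gcn1. hri1 stood at 30.1 and 19.7 CPM at 0 h and at 135 and 111 CPM at 6 h, a log2 change of 2.30 (SE 0.46, adjusted p = 0.0135 in edgeR, 0.00146 with the block). The call held without replicate 2 at 6 h and was lost without each of the other 3 libraries (adjusted p at most 0.129). hri2 stood at 34.3 and 32.8 CPM and then at 28.1 and 34.2 CPM, gcn2 at 57.6 and 57.2 CPM and then at 73.5 and 74.1 CPM, and gcn1 at 167 and 172 CPM and then at 114 and 137 CPM. None of these 3 was called, nor was SPCC1393.08, the GATA factor Fil1 that acts downstream of Gcn2, at 171 and 150 CPM and then 190 and 188 CPM.

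**Figure D4:**
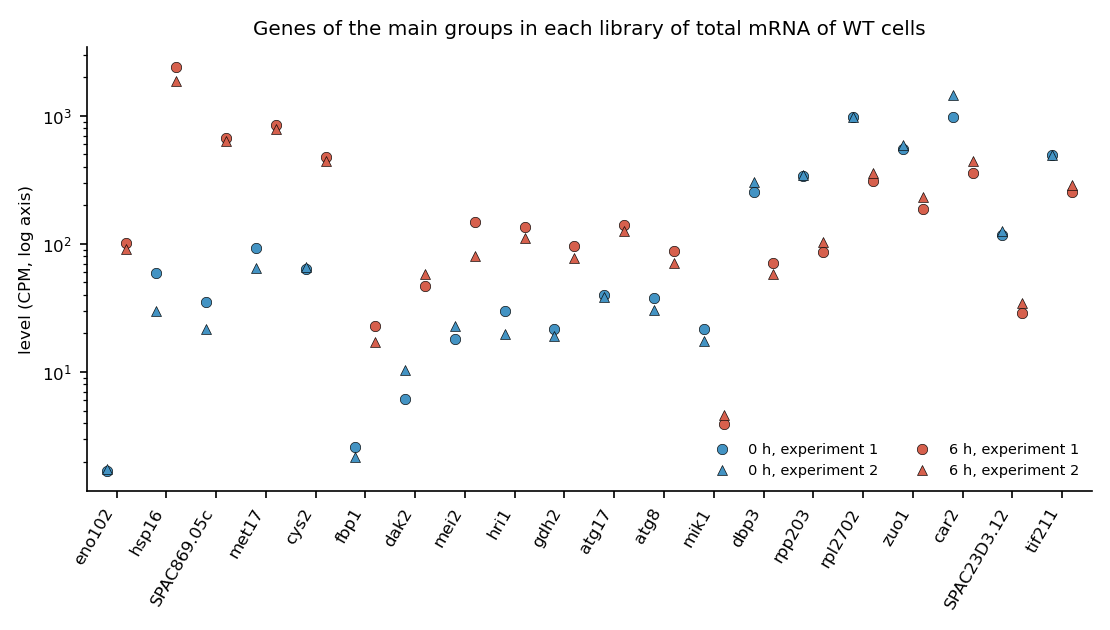
Level (CPM, log axis) of 20 genes in each of the 4 libraries of total mRNA of WT cells; blue is 0 h, red is 6 h, circles are experiment 1 and triangles experiment 2. The first 12 genes, from eno102 to atg8, are higher at 6 h in both experiments, the other 8 are lower, and in none do the 2 times overlap.

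Genes of mating and nitrogen starvation rose in part. The study lists the WT strain as 972 h-, a strain of 1 mating type. Ste11 is the transcription factor that switches on mating genes when nitrogen is short, and Mei2 is the RNA-binding protein that commits cells to meiosis. Of 26 genes 5 rose (mei2, spk1, map1, ste11 and ste4) and 1 fell (map2), with a median of 0.85 and 11 rises with the block. ste11 stood at 16.3 and 30.3 CPM at 0 h and at 76.1 and 59.2 CPM at 6 h, a log2 change of 1.54 (SE 0.41, adjusted p = 0.0312 in edgeR). mei2 stood at 18 and 22.7 CPM and then at 147 and 80.7 CPM, and spk1, the kinase of pheromone signalling, at 10.9 and 15.1 CPM and then at 53.7 and 34.6 CPM. map2, the precursor of P-factor, stood at 4.79 and 4.93 CPM and then at 1.38 and 1.70 CPM (94, 122, 36 and 45 counts). It was the only call among 7 mating-type specific genes, whose median log2 change was 0.97. None of the 5 rises was called without replicate 1 or 2 at 0 h or replicate 1 at 6 h, and 3 were without replicate 2 at 6 h.

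Ste11 binds the TR box, TTCTTTGTT, which was found on either strand in the 250 bases before the start at 10 of the 26 genes (38.5%) and at 1.58% of all promoters, at 3.06% of genes called higher and 0.935% of genes called lower. Of the 10 genes with the box 4 rose, with a median of 1.20, and of the 16 without it 1 rose and 1 fell, with a median of 0.77. The promoters of the listed genes with the box that rose most are shown, with TTCTTTGTT or its reverse complement AACAAAGAA in capitals, on the coding strand and in coordinates of ASM294v3:
mei2, chrI:4515129-4515188 (minus strand): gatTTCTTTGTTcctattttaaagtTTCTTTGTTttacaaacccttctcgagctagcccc
spk1, chrI:3001534-3001593 (minus strand): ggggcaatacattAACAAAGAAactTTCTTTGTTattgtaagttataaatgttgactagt
ste11, chrII:3983224-3983283 (plus strand): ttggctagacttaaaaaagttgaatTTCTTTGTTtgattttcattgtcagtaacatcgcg

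Nitrogen enzymes moved in both directions. Of 12, gdh2, car1 and uga1 rose and car2, aru1 and SPBC24C6.04 fell. gdh2, the NAD-dependent glutamate dehydrogenase that releases ammonium, stood at 21.8 and 19.3 CPM at 0 h and at 96.6 and 77.6 CPM at 6 h and was called without any one of the libraries (log2 change 2.09, SE 0.24, adjusted p = 0.00144 in edgeR, at most 0.0374). car1 and aru1, both arginases, moved apart: car1 from 16.4 and 21.3 CPM to 66.7 and 62.2 CPM, and aru1 from 340 and 477 CPM to 211 and 174 CPM. car2, the ornithine transaminase of the next step, fell from 974 and 1461 CPM to 358 and 446 CPM. The proline permease put4 was the only call among 14 transporters of nitrogen sources, a share like the 6.01% of all genes called lower. It stood at 71.9 and 28.8 CPM and then at 15.3 and 17.1 CPM.

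Of 15 genes of G1 and S phase that the MBF complex controls, 6 fell and none rose, with a median of -0.39. They were mik1, an inhibitory kinase of Cdc2, cdt1 and pol1 for replication, tos4, cdc22, the large subunit of ribonucleotide reductase, and cig2, the cyclin of S phase entry. mik1 stood at 21.7 and 17.5 CPM at 0 h and at 3.94 and 4.62 CPM at 6 h. cdc22 stood at 404 and 366 CPM and then at 189 and 240 CPM, tos4 at 136 and 144 CPM and then at 50.2 and 76.3 CPM, and cdt1 at 34.2 and 24.4 CPM and then at 10.9 and 13.9 CPM. cdc18, the partner of cdt1, stood at 31.1 and 31.9 CPM and then at 16.3 and 20.8 CPM and was not called (adjusted p = 0.111 in edgeR). Of cyclins and regulators of Cdc2 outside this list, slp1, an activator of the anaphase-promoting complex, fell (log2 change -1.46, SE 0.35, adjusted p = 0.022 in edgeR) and the cyclin puc1 rose (1.07, SE 0.26, adjusted p = 0.0242 in edgeR). Of the 6 calls 2 were left without replicate 2 at 6 h and none without any one of the other libraries, and under library size scaling 2.

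MBF binds ACGCGT, the MCB motif, which reads the same on both strands. It was found in the 250 bases before the start at 8 of the 15 genes (53.3%) and at 2.67% of all promoters, with 3.12% of genes called lower and 1.70% of genes called higher. Of the 8 genes with it 3 fell, with a median of -0.15 for the 8, and of the 7 without it 3 fell, with a median of -0.70. The 3 with the motif are shown with the motif in capitals, on the coding strand and in coordinates of ASM294v3:
cdt1, chrII:477288-477347 (plus strand): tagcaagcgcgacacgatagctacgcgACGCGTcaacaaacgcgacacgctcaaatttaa
tos4, chrI:1922437-1922496 (plus strand): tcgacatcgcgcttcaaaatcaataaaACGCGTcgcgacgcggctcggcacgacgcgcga
cdc22, chrI:4226891-4226950 (plus strand): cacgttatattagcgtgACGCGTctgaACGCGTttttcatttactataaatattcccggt

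Many of the rises lay near the ends of chromosomes I and II. Of 105 tested genes of subtelomeric clusters 31 rose and 5 fell, with a median of 0.77. Among the 50 tested genes nearest to each end of the 3 chromosomes, 11 and 8 rose at the ends of chromosome I, 14 and 11 at those of chromosome II and 4 and 5 at those of chromosome III. That is 53 of 300 genes, 17.7%, beside 5.4% of the other 5870, while 26 of the 300 fell. At the left end of chromosome III more genes fell than rose, 7 against 4, and the median log2 changes at its 2 ends were -0.22 and -0.10. SPBPB2B2.08, a conserved gene of unknown function near the right end of chromosome II, had the largest change of all, from 0.969 and 1.41 CPM at 0 h to 533 and 354 CPM at 6 h (log2 change 8.52, SE 1.64, adjusted p = 0.0116 in edgeR). SPAC977.18 stood at 5.46 and 0.646 CPM and then at 242 and 95.3 CPM, and the genes eno102, dak2, SPAC869.05c and mug14 named here are of these clusters too. The wtf genes, a family of meiotic drivers, held 4 rises and no fall among 25, with a median of 0.93. Several subtelomeric and wtf genes have near-identical copies, so their counts are uncertain. Of the 31 rises 13 were called without replicate 1 at 0 h, 2 without replicate 2 at 0 h, 11 without replicate 1 at 6 h and 21 without replicate 2 at 6 h.

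The 14 genes called without any one of the libraries also held 2 further falls. SPAC23D3.12, a predicted inorganic phosphate transporter, stood at 117 and 127 CPM at 0 h and at 29.0 and 34.5 CPM at 6 h (log2 change -1.94, SE 0.17, adjusted p = 0.000448 in edgeR, at most 0.0114 with 1 library left out). SPAC1039.02, a predicted phosphatase, stood at 450 and 211 CPM and then at 30.8 and 37.4 CPM. SPCC794.04c, a predicted amino acid transporter, rose from 2.35 and 4.76 CPM to 24.8 and 25.3 CPM. The remaining ones were SPCC737.04, SPBPB21E7.04c, the genes dak2, cys2, SPBC3H7.02, fub2, gdh2 and SPCC1739.06c given above, and 3 antisense RNAs.

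Of 1079 non-coding RNAs tested 75 rose and 44 fell, shares not far from the 6.00% and 6.01% of all genes. The counting used strand, so an antisense RNA was counted apart from the gene it overlaps. Among 511 antisense RNAs whose sense gene was also tested, 43 rose and 27 fell, again not far from the shares of all genes. Of the 27 that fell, 11 lay over a gene that rose (40.7%, beside 7.24% of all 511 sense genes) and none over a gene that fell, and the median change of their sense genes was 0.72 beside -0.02 for all pairs. Of the 43 that rose, 38 lay over a gene that was not called, 3 over one that fell and 2 over one that rose. In the 16 pairs with both called, 14 moved in opposite directions and 2, at SPBC1271.08c and sua1, in the same direction.

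cao2, an amine oxidase gene, stood at 14.4 and 5.05 CPM at 0 h and at 159 and 76.8 CPM at 6 h, while its antisense RNA cao2-antisense-1 went from 36.7 and 38.3 CPM to 6.12 and 11.4 CPM (log2 changes 3.61, SE 0.92, adjusted p = 0.0276, and -2.10, SE 0.42, adjusted p = 0.0134, both in edgeR). fbp1 was such a pair as well, with a log2 change of 3.07 for the gene and -0.67 for fbp1-antisense-1 (adjusted p = 0.0442 in edgeR). Among non-coding RNAs with a mean of at least 2 log2 CPM the largest rise was that of ser2-antisense-1, from 0.612 and 0.686 CPM to 39.5 and 14.2 CPM, over the gene ser2 at 121 and 108 CPM and then 64.5 and 64.7 CPM, which was not called. spo4-antisense-1, ubp16-antisense-1 and nab3-antisense-1 were called without any one of the libraries. nab3-antisense-1 stood at 5.0 and 7.55 CPM and then at 44 and 41 CPM, and nab3, a poly(A)-binding protein gene, at 24.7 and 26.4 CPM and then at 19.1 and 22.9 CPM.

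In the polysome fractions of the same strain, mRNAs bound by several ribosomes, 529 genes were higher at 6 h (8.57%) and 549 lower (8.90%). Of the genes higher in total mRNA 293 were also called higher in polysomes, 79.2% of the one list and 55.4% of the other, and of the lower genes 303, 81.7% and 55.2%. The median log2 change in polysomes was 1.61 for the genes that rose in total mRNA and -1.16 for those that fell. The same-signed share over all genes tested was 82.1%. The difference between the change in polysomes and that in total mRNA was called for 1 gene, the antisense RNA meu26-antisense-1 (0.0162%). In edgeR 156 genes had an unadjusted p under 0.05, fewer than the 308 expected by chance.

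In total mRNA of eIF2α.S52A cells, 131 genes were higher at 6 h (2.12%) and 46 lower (0.746%). Of the genes that rose in WT cells 103 were also called higher in the mutant, 27.8% of the one list and 78.6% of the other, and of those that fell 29, 7.82% and 63.0%. No ribosomal protein gene was called in the mutant and their median was -0.52 beside -1.11 in WT cells. For ribosome biogenesis factors the medians were -0.30 and -0.91, and for the core stress list 1.63 and 1.84. mei2 stood at a log2 change of 0.75 (SE 0.38, adjusted p = 0.32 in edgeR) in the mutant beside 2.48 in WT cells, and hri1 at 2.63 (adjusted p = 0.0179 in edgeR) beside 2.30. The difference between strains in the change itself was tested as an interaction over all genes. It was called by edgeR for 0 genes (0%) and by DESeq2 for 1. In edgeR 146 genes had an unadjusted p under 0.05, fewer than the 308 expected by chance. A call in one strain and none in the other therefore does not show a difference.

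**Figure D5:**
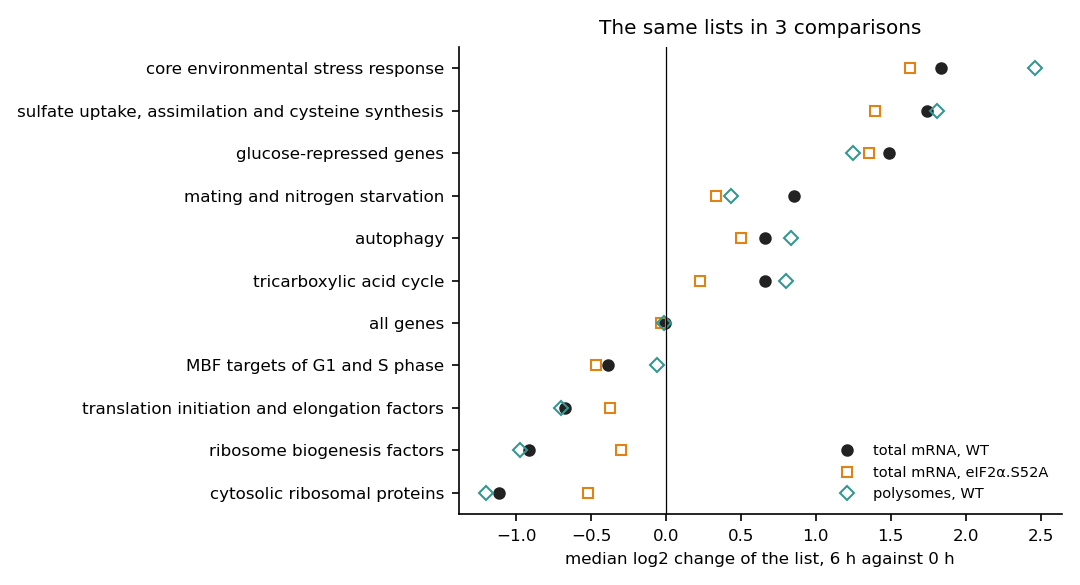
Median log2 change from 0 h to 6 h (horizontal axis) of 11 gene lists in total mRNA of WT cells (filled circles), total mRNA of eIF2α.S52A cells (squares) and polysomes of WT cells (diamonds). Ribosomal proteins lie at -1.11 in total mRNA of WT cells and at -0.52 in the mutant, and edgeR called no difference between strains for any gene.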

How the data were processed

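Stranded poly(A) libraries were sequenced from total RNA and from polysome fractions of both strains, at both times, with 2 libraries in each of 8 groups. Per the labels and the study's methods, the authors aligned reads with STAR to ASM294v2, counted them per gene and strand with QoRTs and deposited raw read counts, beside counts divided by DESeq2 size factors, which were not used. For these tools no version was at hand. The counts were tested with edgeR 4.0.16 in R 4.3.3 (TMM scaling, low counts filtered by filterByExpr, quasi-likelihood test, Benjamini-Hochberg adjustment over 6170 genes, threshold 0.05), in 1 fit over all 16 libraries; the common dispersion was 0.0585 and the test was checked on simulated data. Log2 CPM used a prior count of 1. Figures and lists used Python 3.11.15 with pandas 2.3.3 and matplotlib 3.10.9.

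The labels name 2 experiments, which pair libraries with the same replicate number: deviations of the 0 h and 6 h libraries of WT total mRNA from their group means correlated at r = 0.335 across genes. The fit with this replicate block called 681 genes higher and 693 lower. Other alternatives were library size scaling, DESeq2 1.42.0, no filter, fits of fewer libraries and leaving out each library.

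In 44 rows of the deposited table, in 3 stretches, the gene name and description belonged to another row by the gene ID that the description cites. The counts were taken to belong to the row's ID, and the names were assigned by ID.

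The comparison and the gene lists were chosen with earlier results of these data known. After the files were seen, list entries whose symbol belonged to another gene were dropped, and 6 lists were added (sulfate assimilation, tRNA-modifying enzymes, aminoacyl-tRNA ligases, nascent chain-binding factors, snoRNAs and peroxins). Genes were named by rule: the 15 largest rises and falls with a symbol and a mean of at least 2 log2 CPM, up to 4 called members of each list (or 2 uncalled ones), the 3 largest rises and falls of non-coding RNAs, and genes that check strain or label. The remaining genes named (among them ssa1, ssa2, ght5, SPCC1393.08, the genes of the promoters shown, further called members of short lists and the 14 genes called under every omission) were chosen after their values were seen. Promoters were read by gene ID from the RefSeq genome ASM294v3, a later assembly than that of the counts, in which 6846 gene IDs matched.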

Additional observations from a re-analysis of the deposited data

Results flagged for a closer look

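The antisense RNA meu26-antisense-1 was the only transcript for which edgeR called the difference between its change in polysomes of WT cells and its change in total mRNA; DESeq2 called 6. In total mRNA it stood at 1.07 and 0.77 CPM at 0 h and at 2.41 and 2.76 CPM at 6 h (21, 19, 63 and 73 counts), a log2 change of 1.5 (SE 0.34, adjusted p = 0.0195 in edgeR), and in polysomes the log2 change was -1.95 (SE 0.32, adjusted p = 0.00377 in edgeR). The difference was -3.44 (SE 0.47, adjusted p = 0.049 in edgeR), close to the threshold, and it was not called with the block, under library size scaling or with any 1 of the 4 libraries of total mRNA left out.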

How the results depend on the processing

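The counts of called genes depended on the fit, while the direction of the 741 called genes was the same under each of these settings. With the replicate block 681 genes were higher and 693 lower, and this changed no call that had been made among the 741. Library size scaling gave 637 and 207, the fit of the 4 libraries of WT total mRNA alone 799 and 879, and that of the 8 libraries of WT cells 578 and 665. DESeq2 called 498 higher and 752 lower, and the fit without the filter on low counts 358 and 365. The block in the fit of 8 libraries, an alternative chosen after seeing the data, gave 850 and 900. Leaving out 1 library gave between 11 and 136 genes higher and between 3 and 36 lower; the fewest rises were left without replicate 2 at 0 h and the fewest falls without replicate 1 at 6 h, and the time with 1 library was then assumed to vary like the other groups.

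The alternatives for the differences between comparisons were also chosen after seeing the data. For the difference between strains, DESeq2 called 1 gene and every other setting 0. For the difference between polysomes and total mRNA, the block and library size scaling called 0 genes, DESeq2 6, and each omission of a library 0. In windows of 500 bases the HomolD box was found at 27.4% of promoters of genes called lower. Of 52 list medians 5 changed sign under library size scaling, 2 under DESeq2 and 1 in the fit of the 4 libraries alone. Leaving out 1 library changed the sign of 3 or 4 medians, depending on the library. The causes of these differences were not tested. With 2 libraries a group and 8 residual degrees of freedom, modest changes of single genes are below what the test can call, and genes with few reads have wide errors.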

Other observations

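Beyond the ribosome, other genes of RNA and protein synthesis had medians below 0 in lists that were drawn up after the values had been seen. Of 27 tRNA-modifying enzymes 7 fell and none rose, with a median log2 change of -0.54 beside -0.01 for all genes, and library size scaling left 2 of these calls. pus4, a predicted tRNA pseudouridine synthase, stood at 105 and 142 CPM at 0 h and at 48.7 and 57.5 CPM at 6 h (log2 change -1.22, SE 0.20, adjusted p = 0.00708 in edgeR). Of 35 aminoacyl-tRNA ligases 2 fell (7 with the block, 0 under library size scaling), a share like the 6.01% of all genes, with a median of -0.40, and of 17 snoRNAs 2 fell, with a median of -0.64. Poly(A) libraries hold snoRNAs only in part, so their values are those of polyadenylated forms. None of 10 peroxins was called, with 1 higher and 1 lower with the block.

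Several cell surface and transport genes were called as well, where 6.00% of all genes were higher and 6.01% lower. The few calls in the short lists below do not set those lists apart from all genes. SPBPB10D8.01, a cysteine transporter, stood at 19.6 and 20.8 CPM at 0 h and at 261 and 302 CPM at 6 h (log2 change 3.80, SE 0.78, adjusted p = 0.0135 in edgeR). Of 23 cell wall genes gas2 and bgl2 rose and gas1 fell: gas2, a glucanosyltransferase, stood at 671 and 598 CPM and then at 1210 and 1494 CPM, and gas1, another of that family, at 721 and 686 CPM and then at 357 and 257 CPM. Of 15 genes of iron and copper uptake 3 rose, sib1 and sib2 of siderophore synthesis and ctr6, the vacuolar copper transporter. Of 10 regulators of chronological lifespan and stationary phase, ecl2, an extender of lifespan, rose from 47.5 and 26.1 CPM to 202 and 121 CPM and oga1 fell from 1351 and 1272 CPM to 738 and 661 CPM.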
